A study of Brassica rapa subsp. pekinensis with 10 samples.

Results

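In 14 of 47548 array features of Chinese cabbage, signal in the variety Man-Su stood higher at 60 and at 120 min of cold than at 15 min, while in the variety Shin-Hong it did not. The members were chosen by a rule on log2 intensity: Man-Su cold 60 and 120 min both at least 0.8 above Man-Su cold 15 min (1.74-fold), and Shin-Hong cold 60 and 120 min both at most 0.2 above Shin-Hong cold 15 min (1.15-fold). The 14 made up 0.0294% of the features. The 6 arrays at 15, 60 and 120 min thus chose the members, and values from them are given as a description. The 2 arrays at 30 min and the 2 arrays labelled normal took no part in the choice.

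Chinese cabbage is a leafy vegetable form of Brassica rapa. Total RNA was labelled with Cy3 and hybridised to NimbleGen arrays, 1 array in each of 10 groups. For Man-Su there was an array labelled normal and an array each at 15, 30, 60 and 120 min of cold stress, and the same 5 groups were measured for Shin-Hong. No mutation, transgene or chemical treatment is named for any group, and the normal arrays are also described as wild type. For tissue, plant age, temperature and the number of plants behind an array, the sources used here state nothing. With 1 array per group no difference between single arrays below has a replicate check or a test. The p-values given come from 1 model of the slope over the cold times.

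In Arabidopsis, a relative of Brassica rapa, cold activates transcription factors of the CBF family through regulators such as ICE1, and CBF proteins then switch on cold-regulated (COR) genes that protect membranes and proteins from freezing. Some cold-responsive transcripts appear early and fade, and others build up later as their regulators accumulate. Varieties can differ both in the level of a transcript before stress and in the speed of its response. No gene name accompanies a feature ID in the files, so none of the 14 can be placed in this pathway, and no probe sequence is shown. Members are ranked 1 to 14 by the smaller of their 2 differences in Man-Su (60 or 120 min, minus 15 min), and 4 of them are named by ID.

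The median log2 intensity ranged over 12.02 to 12.08 among the arrays. The random-sequence control, a measure of array background, lay between 5.13 and 5.74. Man-Su cold 30 min had a control level of 5.63, against 5.23 to 5.26 in the other Man-Su cold arrays and 5.42 to 5.74 in the Shin-Hong cold arrays. The variety labels of the normal arrays and those of the cold arrays do not match in the values. Pearson correlations across features, which are not independent, of the normal array called Man-Su were 0.928 to 0.931 with Man-Su cold arrays and 0.938 to 0.962 with Shin-Hong cold arrays. Those of the normal array called Shin-Hong were 0.933 to 0.957 with Man-Su cold arrays and 0.899 to 0.907 with Shin-Hong cold arrays. Of 207 features over 4-fold apart between the varieties in every cold array, 0 kept their direction in the normal arrays. These values cannot tell whether the labels of the normal arrays or those of the cold arrays are in doubt. The variety names of the cold arrays are used as labelled throughout. Comparisons with normal are given for each normal array under both readings of its label.

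**Figure D1:**
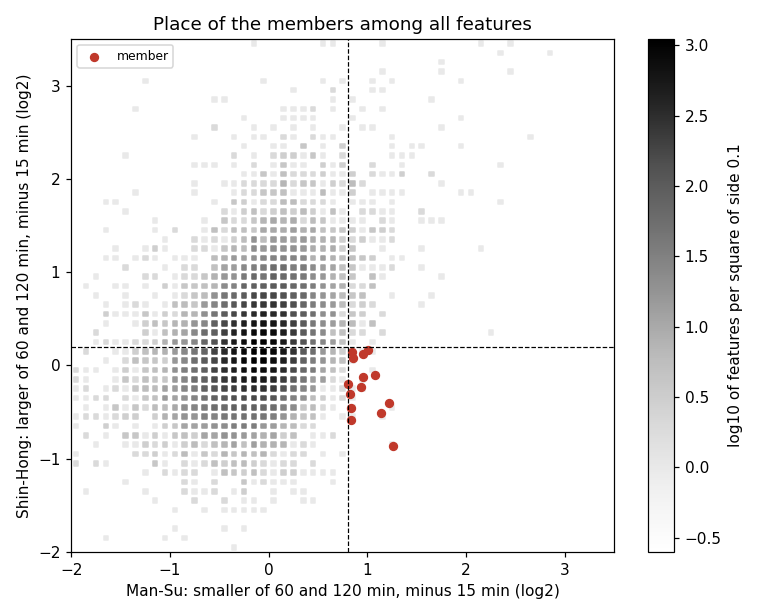
Each grey square counts features by the smaller Man-Su difference (60 or 120 min minus 15 min, log2, horizontal axis) and the larger Shin-Hong difference (vertical axis); red points are the 14 members and dashed lines the limits of 0.8 and 0.2. The members lie at the sparse lower right edge of the cloud, between 0.80 and 1.26 on the horizontal axis; 65 features fall outside the plotted range.

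The members had modest differences in Man-Su. In 13 of them Man-Su stood 0.80 to 1.30 log2 units above its 15 min array at 60 min (median 0.95) and 0.83 to 1.95 above it at 120 min (median 1.22). The other member was below array background in Man-Su at 15 min, so only a bound of at least 1.79 at 120 min can be given. Over all features the median of these differences was -0.01 at 60 min and -0.02 at 120 min. In Shin-Hong the same members stood at -0.90 to 0.17 from the 15 min array at 60 min (median -0.22) and at -1.28 to 0.12 at 120 min. Of the 14, 10 were below their Shin-Hong 15 min value at both later times, against 27.8% of all features. They include the member below background, and the members ranked 4 and 6, where Shin-Hong at 60 min differed from 15 min by only -0.10 and -0.13. At 120 min, 8 were more than 0.5 log2 units (1.41-fold) below Shin-Hong 15 min, a place that 15.2% of all features held. The rule left out features more than 0.2 above Shin-Hong 15 min at either later time, so both contrasts with all features are partly set by the choice.

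Few features met the first condition of the rule at all. In Man-Su 232 features, 0.488%, were at least 0.8 above 15 min at both later times. Of these, 109 met the same limit in Shin-Hong, another 109 were above 0.2 at 60 or 120 min in Shin-Hong without reaching 0.8 at both, and 14 were the members. The reverse rule, with Shin-Hong higher later and Man-Su at most 0.2 above its start, was met by 69 features. The limits cut through a continuum. The member nearest the limit had a smaller Man-Su difference of 0.80, and 17 features that met the Shin-Hong condition lay between 0.7 and 0.8, the highest at 0.79. The highest Shin-Hong change of a member was 0.17, and 2 features with the Man-Su difference lay between 0.2 and 0.3, the lowest at 0.21.

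A model across all 47548 features that asks whether the slope on log2 cold time differed between Man-Su and Shin-Hong (limma, 8 cold arrays, 4 residual degrees of freedom) called 0 features at an adjusted p under 0.05, 0.0% of those tested, and 2119 had an unadjusted p under 0.05. None of the 14 members was called, and the limma adjusted p of each was 0.975. This model holds the contrast that chose the members, so its values for them are a description.

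The 4 named members were picked for large differences and do not cover all patterns: in each, Shin-Hong was below its 15 min level at both later times. Brapa_ESTC005026 had the largest smaller difference in Man-Su. It read 7.22, 8.36, 8.48 and 9.18 log2 units in Man-Su at 15, 30, 60 and 120 min of cold, and 9.66, 9.43, 8.79 and 8.37 in Shin-Hong at the same times. The Man-Su signal climbed at each step, to 2.39-fold its 15 min level at 60 min and 3.88-fold at 120 min, as the Shin-Hong signal declined at each step. The 2 series crossed between 60 and 120 min: the Man-Su minus Shin-Hong difference was -2.44 at 15 min and 0.80 at 120 min. The normal arrays were close to each other, at 9.23 in the array labelled Man-Su and 9.08 in the array labelled Shin-Hong. Both were far above Man-Su cold 15 min and near the Man-Su level at 120 min, so in either reading Man-Su stood below normal at 15 min and near it at 120 min.

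Brapa_ESTC023780 read 9.71, 10.81, 11.02 and 10.86 log2 units in Man-Su at 15, 30, 60 and 120 min. In Shin-Hong it read 12.68, 12.64, 12.17 and 11.98 at these times. Most of the Man-Su gain was present by 30 min, and the Shin-Hong series stayed above the Man-Su series at all 4 times. The normal arrays differed widely, with 11.37 in the array labelled Man-Su and 8.02 in the array labelled Shin-Hong. Man-Su cold 15 min differed from the first by -1.66 and from the second by 1.69, so whether Man-Su was below or above its own normal level at 15 min depends on the label.

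Brapa_ESTC050907 was, with Brapa_ESTC024368, chosen for its decline in Shin-Hong, ranked by the smaller of the declines at 60 and 120 min; other members had larger declines at 120 min alone. It read 11.73, 12.41, 12.57 and 13.24 log2 units in Man-Su at 15, 30, 60 and 120 min. In Shin-Hong it read 12.30, 12.60, 11.71 and 11.43. Man-Su was 0.57 below Shin-Hong at 15 min and 1.81 above it at 120 min. The normal arrays read 10.42 (labelled Man-Su) and 10.57 (labelled Shin-Hong), below all 8 cold arrays. This was the sole member whose Man-Su 15 min level was above the array labelled Man-Su normal, by 1.32, and it was above the array labelled Shin-Hong normal by 1.16. In both varieties its signal was thus above normal from 15 min on.

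Brapa_ESTC024368 was the brightest member in Shin-Hong cold 15 min. It read 11.15, 11.91, 12.01 and 11.98 log2 units in Man-Su at 15, 30, 60 and 120 min, a step by 30 min followed by a plateau. In Shin-Hong it read 13.60, 13.11, 12.70 and 13.14, higher than Man-Su at every time. The normal arrays read 12.39 (labelled Man-Su) and 11.30 (labelled Shin-Hong).

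**Figure D2:**
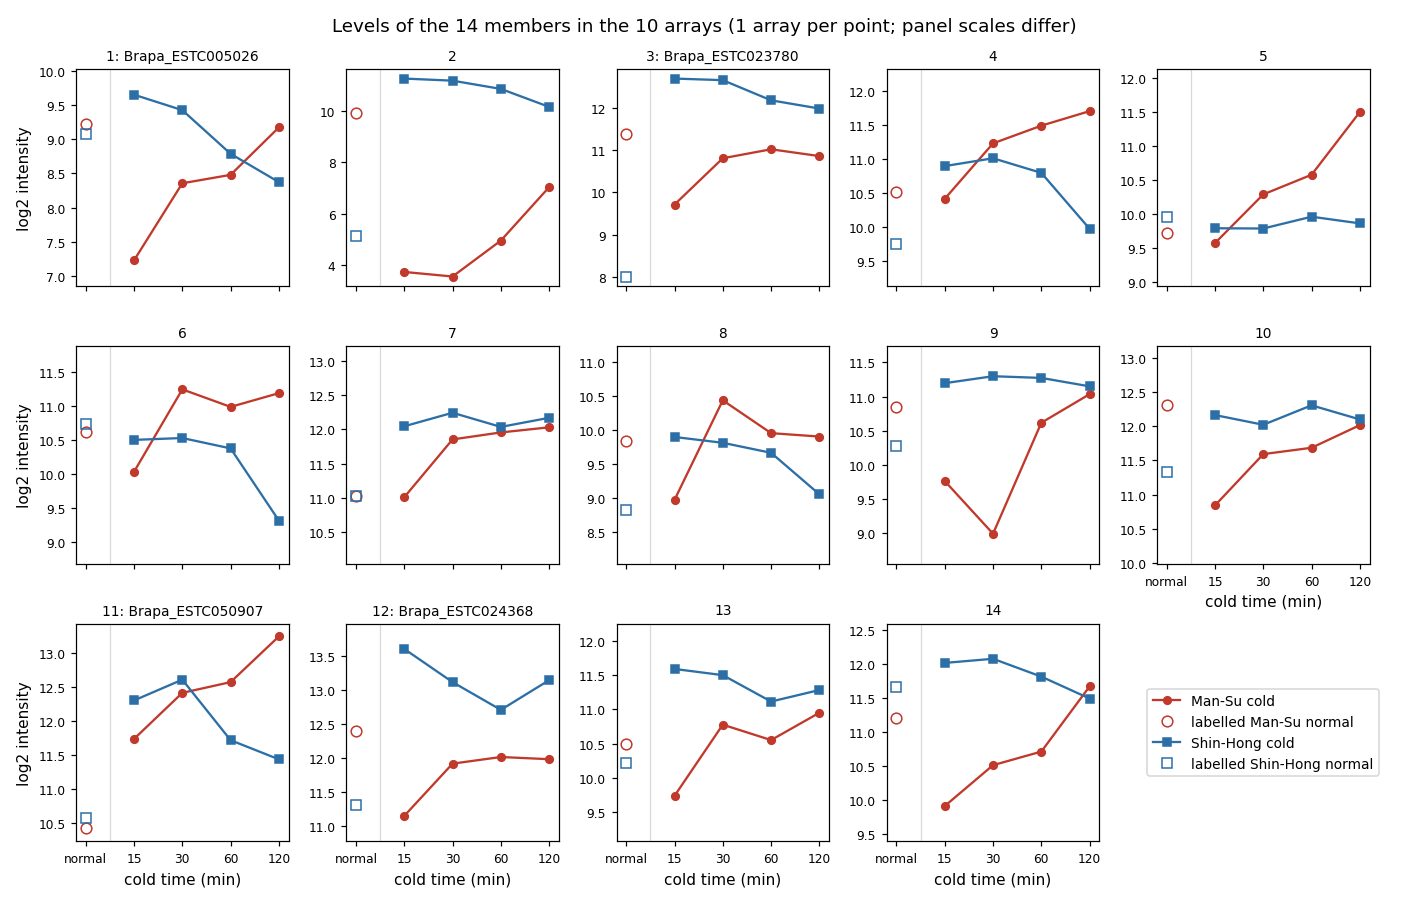
Log2 intensity (vertical axis, scale set per panel) of each member by rank, with cold times of 15, 30, 60 and 120 min and the normal arrays at the left (horizontal axis); red circles are Man-Su, blue squares Shin-Hong, and open symbols the arrays labelled normal, 1 array per point. Man-Su lies below Shin-Hong at 15 min in all 14 panels and above it at 120 min in 7.

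The question that follows from the rule is whether Shin-Hong already held the level that Man-Su reached. At 15 min the Man-Su level was below the Shin-Hong level in all 14 members, with a median of 9.83 log2 units in Man-Su and 11.42 in Shin-Hong. The median Man-Su minus Shin-Hong difference was -1.38 and the smallest gap -0.22. In 11 members Shin-Hong was more than 0.5 above Man-Su at 15 min, against 17.3% of all features. The rule asks for a low 15 min array in Man-Su relative to later ones and for one that is not low in Shin-Hong, so this gap is partly set by the choice.

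Set against the mean of Man-Su 60 and 120 min, the Shin-Hong 15 min level was at or above it, within a tolerance of 0.5, in 10 of 14 members. That share is close to the 77.0% of all features for which the same holds, so the count by itself tells nothing particular of the members. Among the 109 features that met the 0.8 limit in both varieties, 7 had Shin-Hong already there. That set was chosen for a Shin-Hong 15 min array below the later ones, so its low count is partly set by the choice. Among the 69 features of the reverse rule, Man-Su cold 15 min was in the same sense already at the late Shin-Hong level in 51. The share of all features for this reverse measure is not given here, so the 51 cannot be read as particular to that set. No test of these shares was made, because the 15, 60 and 120 min arrays define the sets.

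In 6 members Shin-Hong at 15 min exceeded the late Man-Su mean by more than 0.5, against 17.4% of all features. They include Brapa_ESTC005026, Brapa_ESTC023780 and Brapa_ESTC024368, whose late Man-Su mean minus Shin-Hong 15 min was -0.83, -1.75 and -1.60. The members ranked 13 and 14 were at -0.84 and -0.82. The sixth was the dim member described below. The member ranked 13 read 9.73, 10.78, 10.55 and 10.95 in Man-Su at the 4 times and 11.60, 11.50, 11.12 and 11.29 in Shin-Hong. Man-Su stayed below Shin-Hong at each time, and its gap narrowed to -0.33 at 120 min.

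In 4 members, ranked 7 to 10, the late Man-Su mean came within 0.5 of the Shin-Hong 15 min level, as it did in 59.5% of all features, with differences of -0.05, 0.03, -0.37 and -0.31. The member ranked 7 shows this most plainly. It read 11.00, 11.85, 11.96 and 12.03 in Man-Su at 15, 30, 60 and 120 min, and 12.05, 12.25, 12.04 and 12.17 in Shin-Hong. Shin-Hong was level throughout and Man-Su had met it by 60 min. Its normal arrays read 11.03 (labelled Man-Su) and 11.02 (labelled Shin-Hong), as low as Man-Su cold 15 min. In this member the label of the normal arrays makes no difference: Shin-Hong was about 1.02 above normal at 15 min and Man-Su got there later. The member ranked 10 also drew level, with 10.84, 11.59, 11.69 and 12.02 in Man-Su and 12.17, 12.02, 12.31 and 12.10 in Shin-Hong. Its normal arrays were apart, at 12.32 (labelled Man-Su) and 11.33 (labelled Shin-Hong), the first near the Shin-Hong cold arrays and the second between the Man-Su 15 and 30 min levels.

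The remaining 4 members, ranked 4, 5, 6 and 11, went beyond the Shin-Hong starting level by more than 0.5, a share close to the 23.0% of all features. Their late Man-Su mean minus Shin-Hong 15 min was 0.70, 1.25, 0.59 and 0.61. The member ranked 5 read 9.57, 10.29, 10.58 and 11.50 in Man-Su at the 4 times and 9.79, 9.79, 9.96 and 9.86 in Shin-Hong. It is the member with the smallest gap between the varieties at 15 min, and its normal arrays, at 9.72 (labelled Man-Su) and 9.96 (labelled Shin-Hong), were near both. The 7 arrays other than Man-Su cold 30, 60 and 120 min lay between 9.57 and 9.96.

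The members ranked 4 and 6 combined a gain in Man-Su with a late decline in Shin-Hong. The member ranked 4 read 10.42, 11.23, 11.49 and 11.70 in Man-Su and 10.90, 11.01, 10.80 and 9.97 in Shin-Hong. The member ranked 6 read 10.04, 11.25, 10.99 and 11.19 in Man-Su and 10.50, 10.53, 10.38 and 9.32 in Shin-Hong. In both, the Shin-Hong series was flat up to 60 min and the decline lay in the 120 min array alone, the array with the highest background control of all 10 (5.74); the part of that array in these values was not tested.

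**Figure D3:**
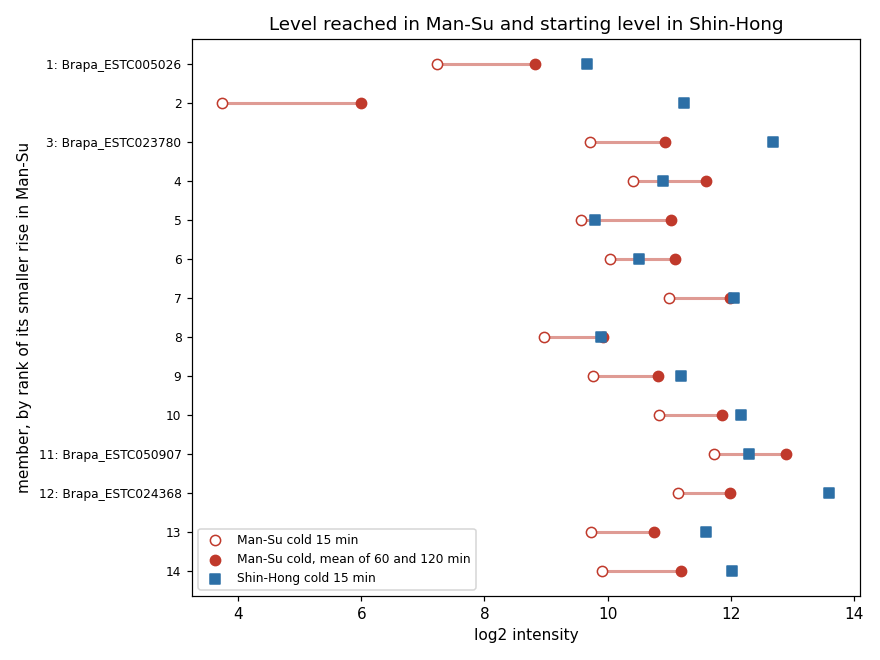
For each member (vertical axis, by rank), log2 intensity (horizontal axis) in Man-Su cold 15 min (open red circle), the mean of Man-Su cold 60 and 120 min (filled red circle, joined by a line) and Shin-Hong cold 15 min (blue square). The blue square lies right of the filled circle by over 0.5 in 6 members and left of it by over 0.5 in 4.

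By 120 min the varieties had spread to both sides. Man-Su was more than 0.5 above Shin-Hong in 6 members (18.5% of all features), more than 0.5 below it in 3 (10.7%), and within 0.5 in 5 (70.8%). The 6 were ranked 1, 4, 5, 6, 8 and 11, and their Man-Su minus Shin-Hong differences ran from 0.80 to 1.87. The 3 were ranked 2, 3 and 12. The median difference of the 14 was 0.05 at 120 min. Since both 120 min arrays took part in the choice, these counts are a description.

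The arrays at 30 min give a view that the rule did not use. The median member read 10.79 in Man-Su and 11.40 in Shin-Hong, with a median Man-Su minus Shin-Hong difference of -0.58, against -0.01 over all features. Man-Su was more than 0.5 lower in 7 of 14 members, where 16.5% of all features were, and more than 0.5 higher in 3, where 13.3% were. The 3 were ranked 5, 6 and 8, at 0.50, 0.71 and 0.62. The difference at this time alone rests on 1 array per variety and was not tested.

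Man-Su cold 30 min was already more than 0.5 above Man-Su cold 15 min in 12 members, against 6.62% of all features. It stood 0.79 above it in the median member, and at least 0.8 above it in 7 members, against 1.9%. In 6 members the 30 min array had covered over 0.75 of the way from the 15 min level to the late mean, close to the 47.1% of all features, and in 6 between 0.25 and 0.75 of it (14.7%). The median share of the way was 0.72 in the members and 0.65 over all features, where most late differences are near 0, so it tells nothing particular of the members. The member ranked 9 was below its 15 min level, and the dim member was not above background at either time. The member ranked 8 peaked there, with 8.97, 10.44, 9.95 and 9.90 in Man-Su at the 4 times and 9.90, 9.81, 9.66 and 9.05 in Shin-Hong. The member ranked 9 ran the other way, with 9.76, 8.98, 10.61 and 11.03, while Shin-Hong held 11.20, 11.30, 11.27 and 11.15. These differences share the 15 min array with the rule, and Man-Su cold 30 min had the raised background control given above; its part in the result was not tested.

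Shin-Hong differed little between 15 and 30 min. Its 30 min array was within 0.5 of its 15 min array in all 14 members, with differences of -0.49 to 0.31, and 97.2% of all features were as close. The largest of them was the -0.49 of Brapa_ESTC024368.

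All Man-Su differences from 15 min share a single array. Read from 30 to 120 min instead, the median Man-Su difference of the members was 0.45, against 1.25 when read from 15 min (medians over all 14). In 6 members the 120 min array stood at least 0.8 above the 30 min array, where 7.74% of all features did. They were ranked 1, 2, 5, 9, 11 and 14. From 60 to 120 min 9 members were within 0.5 (90.2% of all features), and 5 stood more than 0.5 higher (5.53%). Apart from the dim member, the member ranked 14 had the largest difference from 60 to 120 min, 0.96, followed by the member ranked 5 at 0.92. The member ranked 14 read 9.91, 10.51, 10.71 and 11.67 in Man-Su against 12.01, 12.07, 11.81 and 11.49 in Shin-Hong. Man-Su increased at every step in 7 of the 14, against 5.77% of all features. Of the others, the members ranked 3 and 12 were slightly lower at 120 than at 60 min, and the member ranked 8 declined after 30 min. The members ranked 6 and 13 dipped at 60 min and stood higher again at 120 min. The member ranked 9 dipped at 30 min. The dim member was under background up to 60 min, so its values there have no order.

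**Figure D4:**
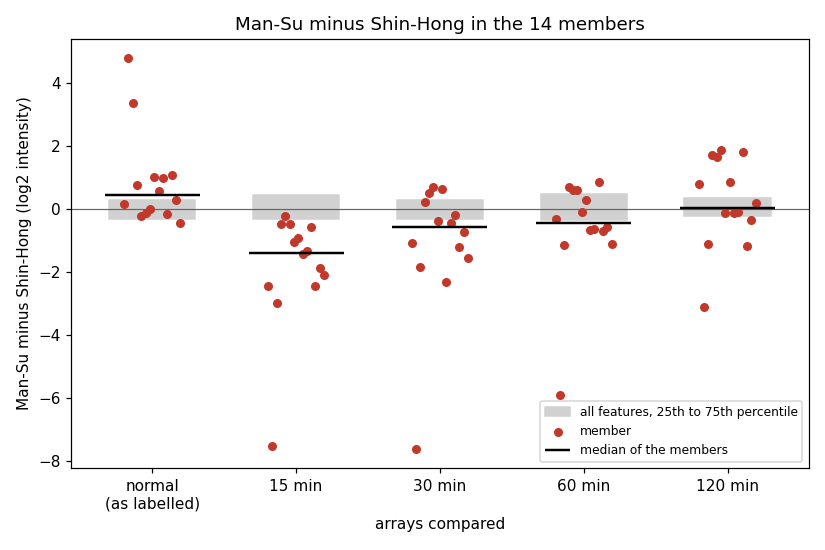
Man-Su minus Shin-Hong difference (log2 intensity, vertical axis) of the 14 members (red points) in the normal arrays as labelled and at 15, 30, 60 and 120 min of cold (horizontal axis); black lines are medians of the members and grey boxes span the 25th to 75th percentile of all features. The median of the members is -1.38 at 15 min, -0.58 at 30 min, -0.44 at 60 min and 0.05 at 120 min.

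The normal arrays were also outside the rule, but Man-Su cold 15 min was not. Members were chosen for a low Man-Su 15 min array relative to later ones, so its differences from normal are partly set by the choice. Man-Su cold 15 min was a median 0.98 below the array labelled Man-Su normal and 0.43 below the array labelled Shin-Hong normal (differences of -0.98 and -0.43). Man-Su cold 15 min lay more than 0.5 below the array labelled Man-Su normal in 10 of 14 members, against 16.1% of all features. It lay that far below the array labelled Shin-Hong normal in 5, against 13.0%. In 5 members it was below both by this margin, against 7.29%. The dim member is among each of these 5, but its values in Man-Su cold 15 min and in the normal array called Shin-Hong were both under background, which leaves 4 members in each count. Taken by the labels, Man-Su at 15 min was thus more than 0.5 under its normal level in 10 members. With the labels exchanged, it was so in 4 with measurable signal.

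The late Man-Su level can be read against normal in the same way. Its median difference was 0.03 from the array labelled Man-Su normal and 0.78 from the array labelled Shin-Hong normal. By the labels, 9 members ended within 0.5 of normal and 4 more than 0.5 above it, close to the 61.9% and 22.7% of all features. With the labels exchanged, 3 ended within 0.5 and 11 above, against 67.3% and 19.5%. Late Man-Su was more than 0.5 above both normal arrays in 4 members, against 10.7% of all features, a count for which the label has no bearing. They were ranked 4, 5, 7 and 11.

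For Shin-Hong the 15 min level lay above normal more often than not. It was more than 0.5 above the array labelled Shin-Hong normal in 11 members (23.2% of all features) and more than 0.5 above the array labelled Man-Su normal in 7 (18.7%). It exceeded both by that margin in 6 (12.6%). Its median difference was 1.05 from the first and 0.62 from the second. Each of these comparisons uses the same Shin-Hong 15 min array. That array took part in the choice, which asks that it is not low against the later Shin-Hong arrays, so these counts are partly set by the choice.

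Between the normal arrays themselves the members leaned one way. The array labelled Man-Su normal was more than 0.5 above the array labelled Shin-Hong normal in 7 members and more than 0.5 below it in 0, against 14.6% and 15.4% of all features. The median difference was 0.43 as labelled, the reverse of the sign at 15 min, and -0.43 with the labels exchanged, which is the sign at 15 min. Without the dim member it was 0.28 as labelled, with a range of -0.46 to 3.35. The dim member was at least 4.66 log2 units higher in the array labelled Man-Su normal, since the other lay under background. With 1 array each, the difference was not tested.

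The member ranked 2 needs a separate reading because it was dim in Man-Su. It read 3.75, 3.57, 4.96 and 7.03 log2 units in Man-Su at 15, 30, 60 and 120 min, and 11.24, 11.16, 10.84 and 10.15 in Shin-Hong. At 15, 30 and 60 min the Man-Su values lay below the random-sequence control of their arrays and have no order among themselves. Set against that control at 15 min, the Man-Su signal at 120 min was at least 3.47-fold higher. The normal arrays read 9.91 (labelled Man-Su) and 5.13 (labelled Shin-Hong), so the array labelled Man-Su normal was bright like the Shin-Hong cold arrays and the array labelled Shin-Hong normal was at background like the early Man-Su arrays. Whether the probes bind the transcripts of both varieties equally well was not tested. No other member was below the control in any array.

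Beyond the rule, the members had a lower signal than most features, as some other sets did. Averaged over the 4 arrays that the rule did not use, the median member had 10.73 log2 units and the median feature 12.03, and 13 of 14 members were below the latter. The 109 features that met the 0.8 limit in both varieties had a median of 11.46, and the 69 of the reverse rule 11.39. Lower still were the 10 features that declined over time in Man-Su alone by the same limits (9.93) and the 111 that did so in Shin-Hong alone (9.78). Each of the 14 was summarised from 7 probes. The part of signal level in the choice of members was not tested.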

How the data were processed

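Each array's file holds linear intensity values, which the authors summarised per feature with RMA (a background correction and a robust summary over probes), per the submitters' processing notes. The sources used here name neither its software nor the set of arrays normalized together. The number of probes per feature comes from the file headers. Intensities were taken to log2 without a filter, 6 control features were left out, and the rule was applied to these values. The members, tolerances and lists were chosen with earlier results of these data known. The naming rule took 2 members with the largest smaller difference in Man-Su, if at least 1 log2 unit above the random-sequence control at 15 min, and 2 further members with the largest smaller decline in Shin-Hong, with both later values 1 unit above the control. No feature ID (0 of 47548) was found in the gene table for Brassica rapa. The slope model used lmFit and eBayes of limma 3.58.1 (R 4.3.3) with Benjamini-Hochberg adjustment over all features. The rule and the model were run on simulated data with planted differences, which checks the calculation and not the results from these arrays. Alternatives changed the scaling, limits, arrays read and a filter on dim features. The number of arrays limits the precision.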

Additional observations from a re-analysis of the deposited data

Results flagged for a closer look

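In 10 of the 14 members the later values lay in opposite directions from 15 min: Man-Su stood above its 15 min array at both 60 and 120 min, and Shin-Hong stood below its own at both. They include the dim member, whose Man-Su values at 15 and 60 min were under background and have no order. In the members ranked 4 and 6, Shin-Hong was flat up to 60 min, with differences of -0.10 and -0.13. The slope model, which tests the difference between the varieties over the 4 cold times, called 0 of the 14 members (limma adjusted p = 0.975 for each); the opposite directions of the later arrays were not tested by themselves. The rule required the Man-Su side. It did not require a decline in Shin-Hong, but it left out features whose Shin-Hong difference passed its upper limit at either later time. Of all features, 27.8% were below Shin-Hong 15 min at both later times. The contrast of the members with that share is thus partly set by the choice. No group had enough arrays for a check of arrays far from the others.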

How the results depend on the processing

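The number of members depended on the limits. With a Man-Su limit of 0.6 or 1 it was 59 or 5, with a Shin-Hong limit of 0.4 it was 23, and with the 60 min or the 120 min arrays alone it was 55 or 611, so the condition on both times removed most candidates. With quantile normalization 21 features met the rule, including all 14, and 17 of the 21 had Shin-Hong 15 min at or above late Man-Su. With median centring 14 features met the rule, 13 of them members. Asking for 1 log2 unit over the control in every array of the rule, an alternative added later, left 13. Quantile normalization gave a median Shin-Hong 30 minus 15 min difference of -0.034, against -0.021 on the deposited values. It turned the median of late Man-Su minus the array labelled Man-Su normal to -0.12, and median centring gave 0.0049, against 0.0335 on the deposited values, so this median has no settled sign. Exchanged labels turned the median difference of the normal arrays to -0.43. Read from 30 min, chosen after seeing the data, the median Man-Su difference at 120 min was 0.45. Of 38 alternatives, 27 stayed within 1.5 times the reported value. The 27 include the settings with dim features left out. That filter removed none of the 14 members, not even the dim member, and so changed no value. The slope model called 0 features in each setting tried, with 2154 (quantile normalized) and 4587 (slope per hour) at an unadjusted p under 0.05. No paired analysis was possible because the groups share fewer than 2 replicate numbers; the slope model already sets the varieties against each other over the same cold times. Intensity near the random-sequence control limits the dim member, without which the median 30 min difference between the varieties was -0.43.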
